A study of Mus musculus with 9 samples.

Results

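The Dlk1-Dio3 imprinted miRNAs were examined as 51 mature miRNAs, chosen by name as products of the imprinted Dlk1-Dio3 region, in small RNA libraries of mouse embryos. All 51 were found, each in 1 row, among 984 miRNA rows, and each had reads in every library. The embryos were taken at embryonic day 9.5 from timed matings of mice mutant for miR-17~92, a polycistron of miRNAs of 4 seed families named after their members miR-17, miR-18 and miR-19 as well as miR-92. There were 8 genotypes with 1 library each, all labelled female: wild type with the full cluster, knockout of the entire cluster (full deletion), single deletions named ΔmiR-17, ΔmiR-18, ΔmiR-19 and ΔmiR-92 after what was removed, and 2 alleles that lack several families, ΔmiR-17,18 and ΔmiR-17,18,92. Heart and tail bud had been dissected off every embryo, and RNA came from what remained. The strain, the zygosity of the alleles and the number of embryos behind a library are not given in the sources used here. A ninth library of reads that were assigned to no genotype entered no comparison.

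The Dlk1-Dio3 region is an imprinted domain. The paternal chromosome expresses the protein-coding genes Dlk1, Rtl1 and Dio3, and the maternal chromosome expresses the non-coding RNAs Meg3, anti-Rtl1, Rian and Mirg, which carry or accompany the miRNA and snoRNA genes. The miRNAs of the domain are known to be abundant in the embryo, the placenta and the brain, and those transcribed antisense to Rtl1 are fully complementary to the Rtl1 transcript and direct its cleavage. The deleted cluster lies on another chromosome, and none of the 47 members with a RefSeq sequence (GRCm38.p6) shared its seed (bases 2 to 8, through which a miRNA recognises its targets) with any of 11 arms of miR-17~92.

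The members came from 35 hairpins on the plus strand of chromosome 12, between positions 109580233 and 109743795 of GRCm38, a span of 163.6 kb. The deposited table gives no positions, so these were read from the GENCODE annotation of GRCm38. Going from Meg3 (109541001 to 109571726) towards Mirg (109729764 to 109749460), the first 2 hairpins, Mir493 and Mir337, gave 4 members and lay between Meg3 and Rtl1. The next 5 hairpins, Mir431, Mir433, Mir127, Mir434 and Mir136, gave 9 members and lay opposite an exon of Rtl1 (109589193 to 109600330, minus strand). Mir370 lay in an intron of Rian (109603940 to 109661716). The remaining 27 hairpins, from Mir379 to Mir410, gave 37 members. From Mir382 on they lay in exons or introns of Mirg.

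The 5 members with the highest average level are shown first, 5′ to 3′ with the seed in capitals, because they made up 50.3% of the summed level of all members. Sequences are those of RefSeq, and the prefix mmu is left out in the text.
mmu-miR-127-3p: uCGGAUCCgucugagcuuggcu
mmu-miR-541-5p: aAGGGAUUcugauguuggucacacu
mmu-miR-379-5p: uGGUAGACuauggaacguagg
mmu-miR-409-3p: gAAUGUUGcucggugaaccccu
mmu-miR-300-3p: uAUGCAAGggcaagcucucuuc

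Another 8 members are shown because a library stood far from the other 7 in their level.
mmu-miR-494-3p: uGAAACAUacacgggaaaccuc
mmu-miR-382-5p: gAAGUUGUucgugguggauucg
mmu-miR-382-3p: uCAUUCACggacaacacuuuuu
mmu-miR-323-3p: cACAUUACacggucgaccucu
mmu-miR-369-5p: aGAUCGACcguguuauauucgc
mmu-miR-1197-3p: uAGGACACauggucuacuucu
mmu-miR-434-5p: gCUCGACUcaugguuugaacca
mmu-miR-337-5p: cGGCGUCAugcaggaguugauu

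A further set is shown because its members differ by few bases from another member, so that the levels of near relatives can be compared.
mmu-miR-379-3p: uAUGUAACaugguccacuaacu
mmu-miR-411-3p: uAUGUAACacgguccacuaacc
mmu-miR-381-3p: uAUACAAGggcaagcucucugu
mmu-miR-376b-3p: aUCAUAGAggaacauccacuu
mmu-miR-376a-3p: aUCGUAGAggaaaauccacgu
mmu-miR-154-3p: aAUCAUACacgguugaccuauu
mmu-miR-369-3p: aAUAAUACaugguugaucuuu
mmu-miR-543-3p: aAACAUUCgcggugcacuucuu
mmu-miR-495-3p: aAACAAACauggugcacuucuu

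Read together with miR-300-3p, this set held 5 close pairs. miR-379-3p and miR-411-3p were the only ones of the 47 members with a sequence that shared a seed. Counted from the 5′ end, with the base of the first-named member given first, this pair differed by U10C and U22C. The pair miR-300-3p and miR-381-3p differed by G4A, U21G and C22U, and the pair miR-376b-3p and miR-376a-3p by A4G, C13A and U20G, so both pairs differed within the seed. For miR-543-3p and miR-495-3p the differences were U6A, U7A, G9A and C10U, and for miR-154-3p and miR-369-3p, aligned over 21 bases, C4A, C10U, C17U and A20U. A first base of U was found in 21 of 47 members (44.7%), and in 36.02% of the 769 miRNAs of the table with a sequence. GC content ran from 23.8% to 68.2% with a median of 45.5%.

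Sequencing depth was between 6563143 reads in ΔmiR-92 and 18480034 reads in ΔmiR-18. Levels are given as nRPM, the deposited value times 0.116, a scale on which the totals of the 8 libraries average that of RPM values (1 read was worth between 0.0624 and 0.157 nRPM). The lowest count of any member in any of the 8 libraries was 112 reads. The deleted arms checked the labels. miR-17-5p stood between 17332 and 53724 nRPM where miR-17 was kept and between 8.87 and 180 nRPM where it was deleted. For miR-18a-5p the ranges were 3446 to 12793 and 4.30 to 72.6 nRPM, and for miR-19a-3p 3157 to 83053 and 4.93 to 15.1 nRPM. For miR-19b-3p they were 25170 to 155581 and 1541 to 2852 nRPM, and for miR-92a-3p 60319 to 199557 and 546 to 872 nRPM. Both miR-19b-3p and miR-92a-3p were thus lower but still present where their family was deleted. Among the deleted libraries the highest levels of miR-17-5p and miR-18a-5p were those of ΔmiR-17,18. Tissue markers were present in all libraries: the 5 heart miRNAs summed to between 2015 and 6014 nRPM and the 5 neural miRNAs to between 2480 and 6377 nRPM. The heart had been removed, and most of the heart sum was miR-1a-3p (1531 to 5005 nRPM) and miR-133a-3p (285 to 752 nRPM). The other heart miRNAs were lower, miR-208a-3p at 6.27 to 176, miR-499-5p at 10.3 to 60.3 and miR-208b-3p at 8.89 to 28.4 nRPM.

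The members were a large part of the miRNA population. Their summed level was 148968 nRPM in wild type and 164840 in the full deletion. It was 138999 nRPM in ΔmiR-17,18,92, 126326 in ΔmiR-17,18, 145955 in ΔmiR-92, 133321 in ΔmiR-19, 138027 in ΔmiR-18 and 141711 in ΔmiR-17. The sum averaged 142268 ± 11534 nRPM (SD over the 8 libraries, which are 8 genotypes), and its highest and lowest values were 1.30-fold apart. As a share of all miRNA reads it was between 11.9% and 17.4%, and as a share of reads outside miR-17~92 between 15.3% and 19.1%. In bulk embryo RNA, fewer cells that express a miRNA and less of it per cell cannot be told apart.

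**Figure D1:**
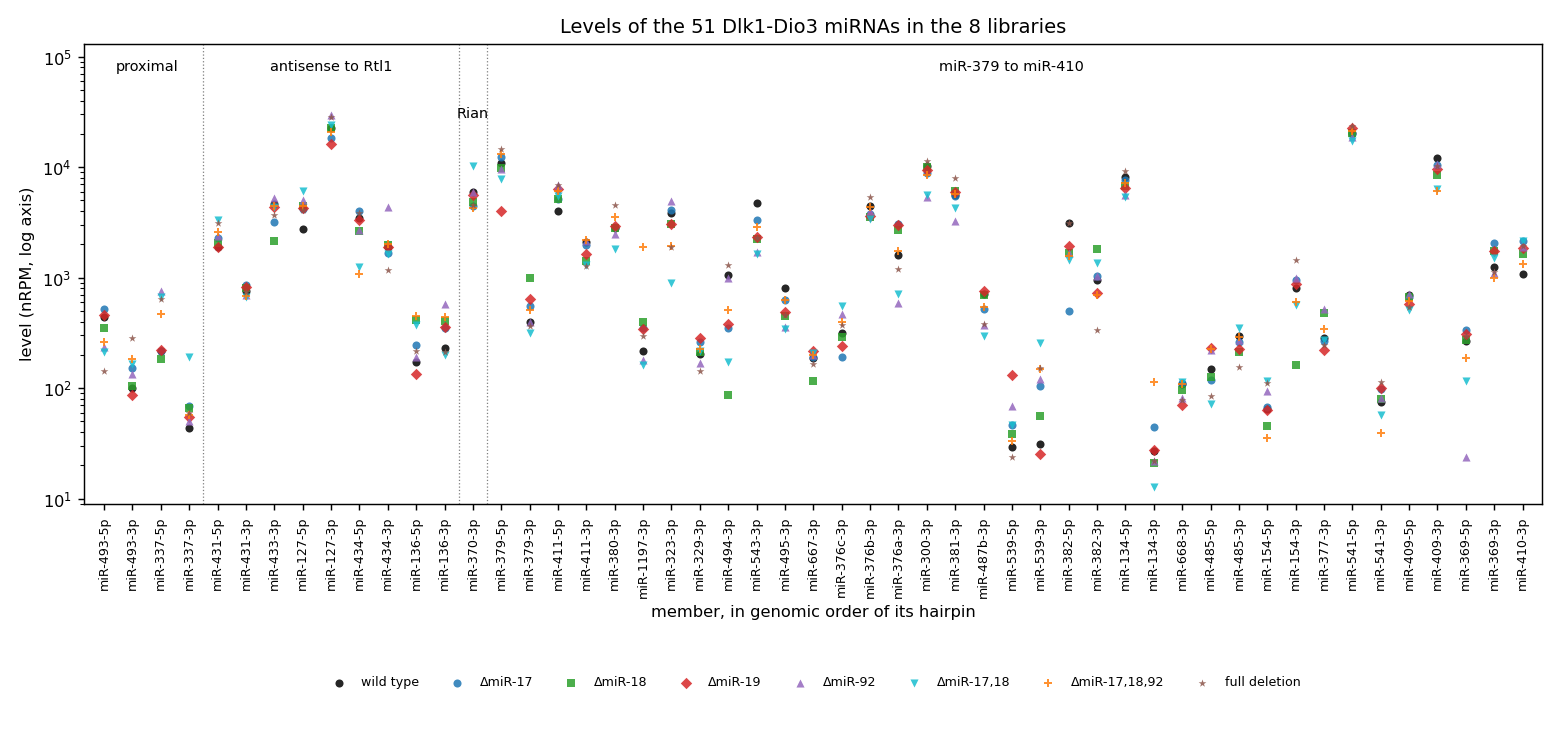
Level of each of the 51 members in nRPM (log axis) against its place in the genomic order of the hairpins, with 1 symbol per library and dotted lines between the 4 places of the locus. Members span from averages of 36.5 to 22797 nRPM, and for most members the 8 symbols lie close together compared with that span.

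Levels of single members spanned a wide range. Of the 51, 24 averaged 1000 nRPM or more, 21 averaged 100 to 1000 and 6 averaged less than 100 (36.5 to 96.3 nRPM), and 9 were among the 50 most abundant miRNAs of the table. The rank order of the 51 levels in each mutant was close to that in wild type, with Spearman's rho between 0.919 and 0.972 across members, which share a locus and a library and are not independent.

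miR-127-3p, the antisense miRNA known for cleaving Rtl1 RNA, was the most abundant member. It stood at 22524 nRPM in wild type, 28299 in the full deletion, 20788 in ΔmiR-17,18,92, 24094 in ΔmiR-17,18, 29428 in ΔmiR-92, 16114 in ΔmiR-19, 22688 in ΔmiR-18 and 18438 in ΔmiR-17. The wild-type value lay inside the range of the mutants, and no mutant was 2-fold away. miR-541-5p, from an intron of Mirg, was next with 20588 ± 2021 nRPM (SD over the 8 libraries) and a 1.36-fold range. miR-409-3p averaged 9234 ± 2148 nRPM with its highest level in wild type (12050.3) and its lowest in ΔmiR-17,18,92 (6054). miR-300-3p averaged 8646 ± 2160 nRPM, with 5313 in ΔmiR-92 and 5578 in ΔmiR-17,18 and between 8414 and 11297 nRPM in the other libraries.

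miR-379-5p, the 5p arm of the first hairpin of the distal cluster, had a single low library. It stood at 10919.8 nRPM in wild type, 14689.9 in the full deletion, 13121 in ΔmiR-17,18,92, 7828 in ΔmiR-17,18, 9550 in ΔmiR-92, 4017 in ΔmiR-19, 9766 in ΔmiR-18 and 12382 in ΔmiR-17. ΔmiR-19 was at 0.368 of wild type (95% interval 0.363 to 0.373 from the read counts). These intervals cover counting error only, since 1 library per genotype gives no measure of the spread between embryos.

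The 4 places of the locus held unequal shares of the sum. The 37 members from Mir379 to Mir410 made up 67.2%, the 9 antisense to Rtl1 28.1%, miR-370-3p alone 4.03% and the 4 proximal members 0.686%. The distal cluster summed to 103785 nRPM in wild type, with a low of 73030 in ΔmiR-17,18 and a high of 113811 in the full deletion. The antisense group summed to 38426 nRPM in wild type, with a low of 33223 in ΔmiR-19 and a high of 50692 in ΔmiR-92. Thus the library that was lowest for the distal cluster was not the lowest for the antisense group, and ΔmiR-17,18 stood above wild type there with 41917 nRPM. miR-370-3p, from Rian, was at 10137 nRPM in ΔmiR-17,18 and between 4280 and 5977 nRPM in the other libraries.

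**Figure D2:**
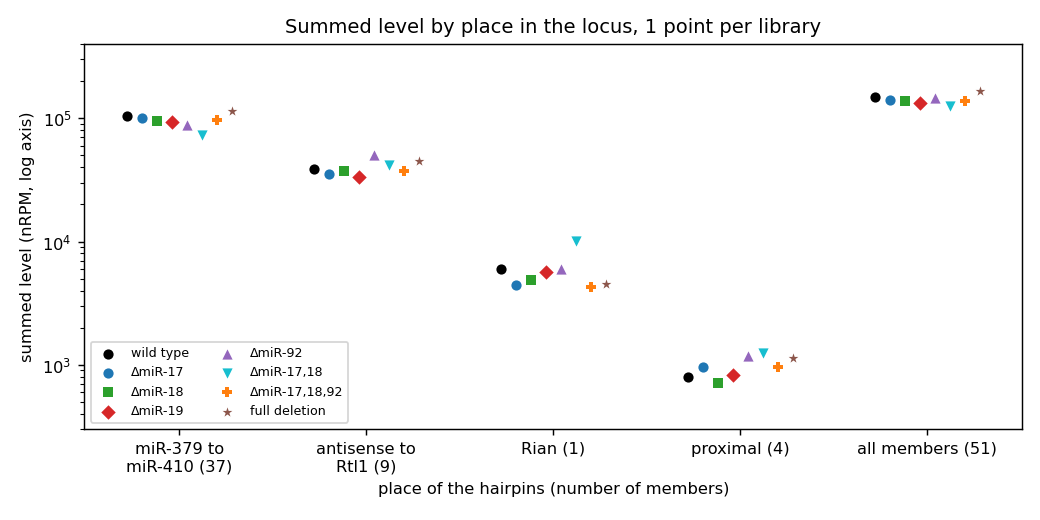
Summed level in nRPM (log axis) of the members of each place in the locus and of all members, with 1 symbol per library. The sums of the distal cluster run from 73030 to 113811 nRPM, and ΔmiR-17,18 is lowest there and highest for miR-370-3p in Rian.

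To ask whether the loss of a seed family of miR-17~92 went along with a change in these miRNAs, additive terms, 1 per family, were fitted over the 8 libraries (limma, with Benjamini-Hochberg adjustment over 550 miRNAs averaging 10 nRPM or more). None of the 51 members was called for any term at an adjusted p of 0.05. Of all 550 miRNAs the model called 0.727% for the miR-17 term and the same share for miR-19, 0.364% for the miR-18 term and the same for miR-92, and none of these lay outside the deleted cluster. The lowest adjusted p of a member was 0.997 (miR-17 term), 0.569 (miR-18 term), 0.959 (miR-19 term) and 0.990 (miR-92 term). edgeR's quasi-likelihood test and DESeq2's Wald test on the recovered reads also called 0 members for each term. Their backgrounds for the terms in the same order were 0.727%, 0%, 0.727% and 0.364% with edgeR and 1.09%, 0.545%, 0.909% and 0.364% with DESeq2.

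At an unadjusted p under 0.05, limma had 4 members for the miR-18 term and 2 for each other term. For the terms in the order used above, the background at that threshold was 3.09%, 4.55%, 3.64% and 1.64% of all miRNAs tested. That background holds the deleted arms themselves. Among members the share was 3.92%, 7.84%, 3.92% and 3.92%. Among the other miRNAs outside miR-17~92 it was 1.85%, 3.09%, 2.88% and 1.03%. Counts were 3, 3, 2 and 1 with edgeR, where the background was 2.73%, 4%, 3.82% and 1.27%, and 2, 4, 2 and 3 with DESeq2, where it was 4%, 5.45%, 5.27% and 2.91%. With edgeR the shares were 5.88%, 5.88%, 3.92% and 1.96% of members and 1.23%, 2.67%, 3.09% and 0.823% of other miRNAs outside miR-17~92. With DESeq2 they were 3.92%, 7.84%, 3.92% and 5.88% of members and 2.88%, 4.32%, 4.73% and 2.26% of those others. The member share was thus the lower for the miR-19 term with DESeq2 alone. The differences in share were not tested. The lowest adjusted p of any member by any of the 3 tools was that of miR-154-3p for the miR-18 term, 0.0614 by DESeq2 with a log2 difference of -1.47, and it was 0.569 by limma with -1.48 ± 0.38 (SE). With 3 residual degrees of freedom and no replicate of any genotype, p-values here rest on the scatter of unreplicated libraries around the additive fit, and separate samples of a genotype were not compared.

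Each mutant library was then set beside the wild-type library for the 45 members averaging 100 nRPM or more, counting ratios of 2-fold or more. All 7 comparisons share the wild-type library. The background is the share of all 319 miRNAs at that level that were as far away in the same library. ΔmiR-17 had 3 of 45 members 2-fold away (background 6.9%), 1 higher (2.82%) and 2 lower (4.08%). ΔmiR-18 had 6 (14.7%), 2 higher (7.52%) and 4 lower (7.21%). ΔmiR-19 had 3 (9.72%), 0 higher (3.45%) and 3 lower (6.27%). ΔmiR-92 had 8 (14.1%), 4 higher (6.9%) and 4 lower (7.21%). ΔmiR-17,18,92 had 6 (15.4%), 4 higher (7.52%) and 2 lower (7.84%). The full deletion had 7 (16.6%), 3 higher (8.46%) and 4 lower (8.15%), and held the highest of the 8 levels for 11 of 45 members, against 18.8% of all miRNAs. With wild type as the reference, these 6 counts of members 2-fold away made up 6.67% to 17.8% of the 45, near the background of the same library, and the median log2 ratio of the members was between -0.08 and 0.04. miR-539-3p (31.3 nRPM in wild type) was the 1 higher member of ΔmiR-17 and among those of ΔmiR-92, ΔmiR-17,18,92 and the full deletion. miR-493-3p (99.8 nRPM in wild type) was among the higher members of the full deletion. Both passed the minimum of 100 nRPM through their higher libraries, so nothing is read from their part of the higher counts. The choice of reference mattered for ΔmiR-18, where the median of the other 7 libraries as the reference left 6 of 45 members (13.3%) 2-fold away and 6.27% of all miRNAs. Medians moved with the scaling, up to 0.41 in ΔmiR-17,18,92 with plain totals and down to -0.25 in the full deletion with totals outside miR-17~92.

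ΔmiR-17,18 had the most, 15 of 45 members (33.3%), in a library where 24.1% of all miRNAs were 2-fold away. Of these, 11 were lower and 4 higher, where the background was 12.5% lower and 11.6% higher. The members' median log2 ratio was -0.33 (-0.42 to -0.27 under the other scalings), 29 of the 45 lay below wild type, and the median of the other miRNAs at that level was -0.0028. By place, the 32 members of the distal cluster had a median of -0.47 with 9 lower and 1 higher. The 9 antisense members had a median of -0.10 with 1 lower and 2 higher. The 1 higher distal member was miR-539-3p (31.3 nRPM in wild type), which was also among the 4 higher members. It passed the minimum level through its higher libraries, so nothing is read from its part of these higher counts. ΔmiR-17,18 held the lowest of the 8 levels for 14 of 45 members, against a background of 17.9% of all miRNAs. With the median of the other 7 libraries as the reference, 10 of 45 members were 2-fold away in ΔmiR-17,18, against 12.2% of all miRNAs. It also held the highest heart marker sum, 6014 nRPM, with 0 of the 5 markers at 0. That sum was 5108 nRPM in ΔmiR-92, 4492 in ΔmiR-17,18,92 and 2015 to 3258 in the other libraries. miR-1a-3p, miR-133a-3p, miR-208a-3p and miR-499-5p were each highest in ΔmiR-17,18, while miR-208b-3p stood at 20.5 nRPM there and 24.6 in wild type. miR-208a-3p was at 176 nRPM in ΔmiR-17,18, 159 in ΔmiR-17,18,92, 6.27 in wild type and 24.7 to 51.7 in the other libraries. ΔmiR-17,18 also held the highest sum of 7 pluripotency and early embryo miRNAs (8540, against 5067 to 7990 nRPM elsewhere). Its sum of the neural miRNAs was not the highest, at 3236 nRPM beside 3536 in wild type. Nor were its sums of 3 erythroid miRNAs (926, with 1371 in wild type) and of 4 blood leukocyte miRNAs (760, with 625 in wild type). The part of these markers in the member levels was not tested.

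**Figure D3:**
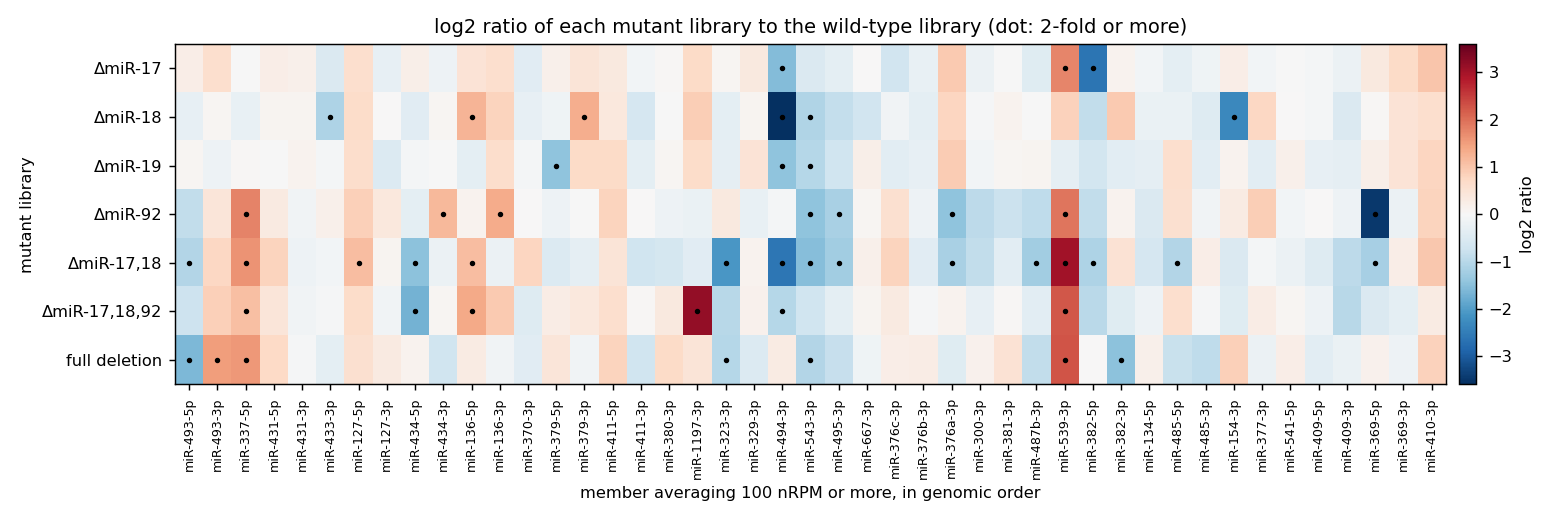
Log2 ratio of each mutant library (rows) to the wild-type library for the 45 members averaging 100 nRPM or more (columns, in genomic order), with red above and blue below wild type and a dot at 2-fold or more. ΔmiR-17,18 carries 15 dots, 11 of them blue, and the other mutants 3 to 8.

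Over all mutants, 48 of 315 pairs of member and mutant were 2-fold away (15.2%), against 14.5% of 2233 pairs of all miRNAs at that level. Of the 48, 5 were of miR-539-3p and 1 of miR-493-3p, which passed the minimum of 100 nRPM through their higher libraries. Of the 45 members, 21 were 2-fold away in no mutant and 24 in at least 1, against 46.1% of all miRNAs at that level. The number that were 2-fold higher in some mutant and 2-fold lower in another was 0, against 2.51% of all miRNAs. Both counts rest on the same wild-type library. A range of 2-fold or more over the 8 libraries was seen in 32 of 45 members, against 69% of all miRNAs at that level. The steadiest members were miR-431-3p, antisense to Rtl1, with 756 ± 70.9 nRPM and a 1.28-fold range, miR-541-5p, and miR-409-5p with 623 ± 75.2 nRPM and a 1.38-fold range.

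Other members had a library that stood far from the rest. In 10 of 45 members (22.2%) a library was 3-fold or more from the median of the other 7, which was so for 31 of the 274 other miRNAs outside miR-17~92 (11.3%), and for 12.9% of all miRNAs at that level. The libraries concerned were not the same from member to member. ΔmiR-19 was among them through miR-539-3p alone, with 25.1 nRPM there and a median of 120 nRPM in the other 7 libraries. Since miR-539-3p passed the minimum level through its higher libraries, nothing is read from its part of the 10.

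miR-494-3p, from the distal cluster, had the widest range among the members, 14.9-fold. It stood at 1053 nRPM in wild type, 1295 in the full deletion, 513 in ΔmiR-17,18,92, 173 in ΔmiR-17,18, 998 in ΔmiR-92, 383 in ΔmiR-19, 87.0 in ΔmiR-18 and 354 in ΔmiR-17. Wild type, ΔmiR-92 and the full deletion were high and the other 5 libraries at least 2-fold lower than wild type. The ratio was lowest in ΔmiR-18, at 0.0826 of wild type (95% interval 0.0780 to 0.0876). In the additive model its log2 difference was -1.61 ± 0.63 (SE) for the miR-18 term and 1.81 ± 0.59 for the miR-92 term, with limma adjusted p of 0.988 and 0.990.

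miR-369-5p and miR-1197-3p each had a single library far from the rest. miR-369-5p stood at 266 nRPM in wild type, 299 in the full deletion, 186 in ΔmiR-17,18,92, 116 in ΔmiR-17,18, 23.9 in ΔmiR-92, 310 in ΔmiR-19, 275 in ΔmiR-18 and 339 in ΔmiR-17. Its level in ΔmiR-92 rested on 167 reads and was 0.0898 of wild type (95% interval 0.0761 to 0.105), while ΔmiR-17,18,92 and the full deletion, which also lack miR-92, were not 2-fold away. ΔmiR-17,18, which keeps miR-92, was at 0.435 of wild type (95% interval 0.402 to 0.471). miR-1197-3p stood at 215 nRPM in wild type, 299 in the full deletion, 1910 in ΔmiR-17,18,92, 162 in ΔmiR-17,18, 181 in ΔmiR-92, 342 in ΔmiR-19, 401 in ΔmiR-18 and 349 in ΔmiR-17. ΔmiR-17,18,92 was 8.87-fold higher than wild type (95% interval 8.41 to 9.37), and no other mutant was 2-fold away.

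miR-539-3p was low in wild type and was 2-fold or more higher in 5 mutants. It stood at 31.3 nRPM in wild type, 152 in the full deletion, 149 in ΔmiR-17,18,92, 255 in ΔmiR-17,18, 120 in ΔmiR-92, 25.1 in ΔmiR-19, 55.5 in ΔmiR-18 and 105 in ΔmiR-17. The 4 libraries without miR-17 lay between 105 and 255 nRPM and those with miR-17 between 25.1 and 120 nRPM, so the groups overlapped through ΔmiR-92. It averaged 112 nRPM and reached the minimum of 100 only through its higher libraries, so its count of mutants above wild type is a description and no support. limma gave a log2 difference of 1.30 ± 0.50 (SE) for the miR-17 term with an adjusted p of 0.997. Without ΔmiR-92 it was 1.97 ± 0.41 with an adjusted p of 0.0477, the only call of a member in any of the fits. That fit called 1.09% of all miRNAs for the term, and miR-539-3p was the only 1 of them outside miR-17~92.

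miR-543-3p had the opposite pattern, with its highest level in wild type. It stood at 4717 nRPM in wild type, 2277 in the full deletion, 2854 in ΔmiR-17,18,92, 1642 in ΔmiR-17,18, 1719 in ΔmiR-92, 2331 in ΔmiR-19, 2228 in ΔmiR-18 and 3319 in ΔmiR-17. All 7 mutants were below wild type, 5 of them by 2-fold or more, and the ratios ran from 0.348 (95% interval 0.341 to 0.355) in ΔmiR-17,18 upwards. miR-495-3p, its close relative in sequence, was also highest in wild type, with 804 nRPM and between 341 and 627 nRPM in the mutants.

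miR-337-5p, from a proximal hairpin, fell into low and high libraries. It stood at 219 nRPM in wild type, 645 in the full deletion, 466 in ΔmiR-17,18,92, 672 in ΔmiR-17,18, 759 in ΔmiR-92, 224 in ΔmiR-19, 183 in ΔmiR-18 and 216 in ΔmiR-17. The full deletion, ΔmiR-92 and both combined deletions were 2.13-fold to 3.47-fold above wild type. Mir337 overlaps the hairpin Mir3544, and the table gives miR-3544-3p the same reads to within 0.470%, so the value belongs to either name. Mir136 overlaps Mir3071 in the same way, and miR-136-3p had identical reads to miR-3071-5p in all 8 libraries.

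**Figure D4:**
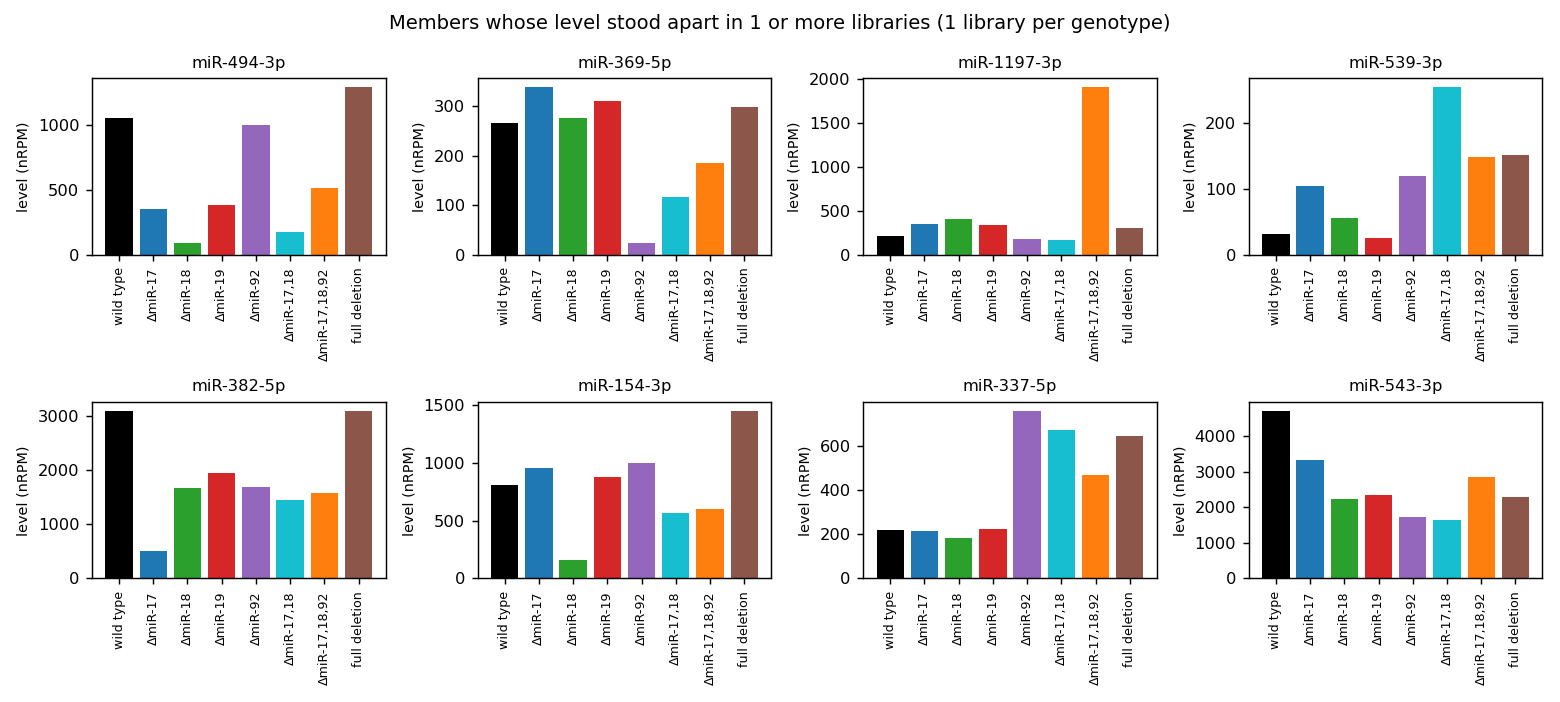
Level in nRPM of 8 members in each library, 1 bar per library with no error bars because each genotype has 1 library. miR-369-5p has its low bar (23.9) in ΔmiR-92 and miR-1197-3p its high bar (1910) in ΔmiR-17,18,92, while miR-494-3p and miR-337-5p are split into high and low libraries.

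The other members of this kind were low in the library that stood apart. miR-382-5p, from an exon of Mirg, stood at 504 nRPM in ΔmiR-17, at 3098 in wild type and 3105 in the full deletion, and between 1444 and 1943 nRPM in the other 5 libraries. miR-154-3p, which lies in an intron of Mirg, stood at 163 nRPM in ΔmiR-18 and between 567 and 1454 nRPM in the other libraries. Both were thus lowest where that family alone was deleted, and the combined deletions without it also lay below wild type, though by less. For miR-382-5p the log2 ratio to wild type was -2.62 for ΔmiR-17, -1.10 for ΔmiR-17,18 and -0.97 for ΔmiR-17,18,92. For miR-154-3p it was -2.31 for ΔmiR-18, -0.51 for ΔmiR-17,18 and -0.44 for ΔmiR-17,18,92. The full deletion was not below wild type for either member, with 0.0031 for miR-382-5p and 0.85 for miR-154-3p.

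miR-323-3p was at 895 nRPM in ΔmiR-17,18, at 1898 in the full deletion, at 1930 in ΔmiR-17,18,92, and between 3030 and 4923 nRPM in the 5 libraries that had at most 1 family deleted. miR-434-5p, antisense to Rtl1, was at 1248 nRPM in ΔmiR-17,18 and 1086 in ΔmiR-17,18,92, at 3826 in the full deletion, and between 2625 and 4020 nRPM in the others. miR-376a-3p, of a family known for adenosine-to-inosine editing of its hairpins, came just short of 3-fold. It was at 586 nRPM in ΔmiR-92 and 708 in ΔmiR-17,18, at 1602 in wild type, and between 1186 and 3079 nRPM in the other mutants. In each of these 3 members ΔmiR-17,18 was among the low libraries.

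Smaller differences were seen in members chosen because their ratio was among the 3 highest or 3 lowest of a mutant. miR-433-3p, antisense to Rtl1, was at 2162 nRPM in ΔmiR-18, 0.466 of wild type. miR-136-5p stood at 174 nRPM in wild type and above it by 2.36-fold where miR-18 alone was deleted, by 2.58-fold in ΔmiR-17,18,92 and by 2.16-fold in ΔmiR-17,18. miR-127-5p, the minor arm of Mir127, was lowest in wild type (2784 nRPM) and 2.17-fold higher in ΔmiR-17,18. These 3 members come from hairpins antisense to Rtl1, whose summed level stayed within a 1.53-fold range. miR-410-3p, from the last hairpin of the cluster, was lowest in wild type (1088 nRPM) and at most 1.99-fold higher in a mutant, and miR-376c-3p ran from 193 nRPM in ΔmiR-17 to 551 in ΔmiR-17,18.

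Each family was lost on more than 1 background, which allowed comparisons that share no library. Loss of miR-17 meant ΔmiR-17 beside wild type and ΔmiR-17,18 beside ΔmiR-18. miR-539-3p was higher on both, from 31.3 to 105 nRPM and from 55.5 to 255 nRPM, and was the only member 2-fold away in the same direction, where 0.627% of all miRNAs were. Since it entered the 45 members through its higher libraries, nothing is read from that count. Loss of miR-18 meant ΔmiR-18 beside wild type and ΔmiR-17,18 beside ΔmiR-17. There miR-494-3p had log2 ratios of -3.60 and -1.03 and miR-543-3p of -1.08 and -1.02, 2 of 45 members against a background of 4.7%. For loss of miR-92, on wild type and on ΔmiR-17,18, miR-136-3p had 1.32 and 1.15, 1 of 45 members against 0.627%. That background was 2 miRNAs, miR-136-3p and miR-3071-5p, which has identical reads, so it held no independent miRNA. For loss of miR-19, on wild type and on ΔmiR-17,18,92, 0 of 45 members were 2-fold away in the same direction, against 1.25%. Opposite directions on the 2 backgrounds, 2-fold or more each, were seen in 0 of 45 members for miR-17 (background 0.627%) and miR-18 (0.313%), and in 1 each for miR-92 (2.51%) and miR-19 (1.25%).

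A hairpin is cut into a 5p and a 3p arm, which come from the same transcript, so the arms allow a comparison within a hairpin. Both arms were members for 16 hairpins. The 5p arm had the higher average in 9 and the 3p arm in 7, and 10 hairpins had the same higher arm in all 8 libraries. For the 11 hairpins with both arms at 100 nRPM or more, the arms lay on the same side of wild type in 35 of 77 pairs of hairpin and mutant, where the background over all 74 hairpins of that level outside miR-17~92, members included, was 48.6%. In 18 pairs at least 1 arm was 2-fold away (background 24.3%) and in 1 pair both were (2.12%). In that pair the arms went in opposite directions, as in 6 of the 11 such pairs of all hairpins.

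That pair was Mir493 in the full deletion. miR-493-3p passed the minimum of 100 nRPM through its higher libraries. miR-493-5p stood at 437 nRPM in wild type and 143 in the full deletion, and miR-493-3p at 99.8 and 284 nRPM. The log2 ratio of the 5p to the 3p arm was 2.13 in wild type, between 0.34 and 2.38 in the other 6 mutants, and -0.99 in the full deletion, the only library in which the 3p arm was higher.

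Among the 11 hairpins, the arm ratio of Mir382 ranged most, 18.96-fold. miR-382-3p stood at 952 nRPM in wild type, 340 in the full deletion, 700 in ΔmiR-17,18,92, 1367 in ΔmiR-17,18, 1043 in ΔmiR-92, 732 in ΔmiR-19, 1824 in ΔmiR-18 and 1046 in ΔmiR-17. Set beside miR-382-5p, the log2 ratio of 5p to 3p was lowest in ΔmiR-17 (-1.05) and highest in the full deletion (3.19), with 1.70 in wild type. Mir369 was next, 12.2-fold, through the low 5p arm in ΔmiR-92. miR-369-3p kept between 989 and 2044 nRPM in all 8 libraries, and was at 1092 nRPM in ΔmiR-92. The steadiest arm ratio was that of Mir409, with a 1.94-fold range, and the median range of the 11 hairpins was 5.79-fold, beside 3.65-fold over all 74.

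**Figure D5:**
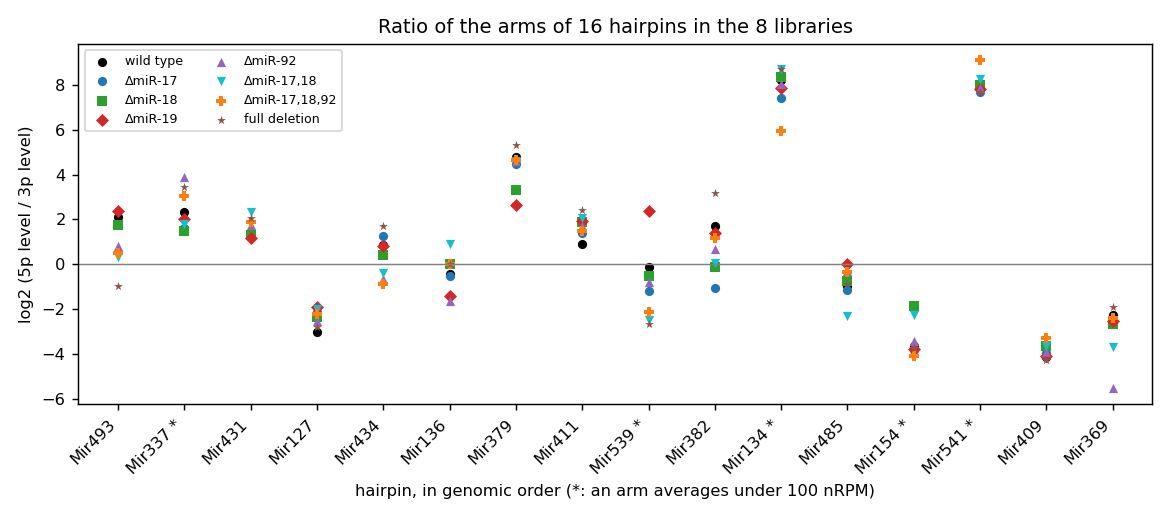
Log2 ratio of the 5p to the 3p level for the 16 hairpins with both arms among the members (x axis, genomic order), with 1 symbol per library and the line at equal levels. Mir382 runs from -1.05 to 3.19 and Mir409 from -4.25 to -3.30, and Mir493 crosses the line in the full deletion alone.

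Close pairs in sequence also varied to different degrees. The ratio of miR-543-3p to miR-495-3p stayed within 1.29-fold over the 8 libraries, between 4.55 and 5.87, and that of miR-300-3p to miR-381-3p between 1.31 and 1.84. The ratio of miR-379-3p to miR-411-3p, the pair with a shared seed, ranged 3.77-fold. miR-379-3p stood at 986 nRPM in ΔmiR-18, 399 in wild type and 641 or less in the other 6 libraries, and miR-411-3p between 1284 and 2190 nRPM. The ratio of miR-376b-3p to miR-376a-3p ranged 5.58-fold and that of miR-154-3p to miR-369-3p 14.0-fold. The sources used here do not give how reads that fit several places were counted. Across the 41 members of this level with a sequence, Spearman's rho of GC content with the log2 ratio to wild type was between -0.344 and 0.141 in the 7 mutants, given as a description.

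Of 50 other miRNAs listed for the same locus, 42 were in the table and 20 averaged 100 nRPM or more. The 42 summed to 15471 to 18918 nRPM over the 8 libraries. limma tested the 35 of them that averaged 10 nRPM or more and called none for any term. In ΔmiR-17,18 the median log2 ratio of the 20 was 0.26, where the 45 members had -0.33. Of the 20, 1 was higher and 1 lower by 2-fold there, against 11.6% and 12.5% of all miRNAs at that level. Across the 7 mutants, 3 of the 20 were 2-fold away in any, against 46.1% of all miRNAs at that level. They were miR-758-3p and miR-410-5p, which were lower, and miR-433-5p, which was higher. miR-758-3p was highest in wild type (1601 nRPM, against 503 to 971 in the mutants) and miR-433-5p lowest there (140 nRPM, against 174 to 379).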

How the data were processed

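Trizol RNA of embryos at embryonic day 9.5 was used, per the labels' protocols. Tools listed in the submitters' processing notes are featureCounts (Subread 1.4.2), STAR 2.2.0 and SAMtools 0.1.19, with mm9 as the build. The deposited table holds signal values: read counts per mature miRNA that the authors divided by a factor per library. All values were whole multiples of 1 read (100% within 0.001 reads), and reads were recovered that way. The table had 1046 rows of 977 accessions. Rows of 1 accession that differed by up to 10% were merged with the higher kept, which left 984 rows, with 7 accessions kept split.

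Genotypes came from the labels. The main test was limma 3.58.1 (trend) in R 4.3.3 on log2(nRPM + 1), which understates changes of low miRNAs, over 8 libraries with additive 0/1 terms and a minimum average of 10 nRPM. edgeR 4.0.16, DESeq2 1.42.0, other scalings, filters and a pseudocount, and each library left out in turn were alternatives. Ratios to wild type have exact conditional 95% intervals. With 1 library per genotype they have no test. Members named with values were the 5 most abundant, the 3 highest and 3 lowest ratios of each mutant, any member called, those 2-fold away in 4 or more mutants, the 3 hairpins whose arm ratio ranged most and the seed pair. Steady members, close sequence pairs and miR-495-3p, miR-370-3p and the members of the other list of the locus were chosen after their values were seen. Members and lists were chosen with earlier results of these data known. Of the marker miRNAs, miR-451a and miR-290a-3p were not analysed here.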

Additional observations from a re-analysis of the deposited data

Results flagged for a closer look

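In 2 comparisons of libraries that differ by the same family, 2 members lay 2-fold or more on opposite sides. The difference was not tested because each genotype has 1 library, and the counts are near the share over all miRNAs. For loss of miR-92, miR-376a-3p had a log2 ratio of -1.45 in ΔmiR-92 beside wild type and of 1.29 in ΔmiR-17,18,92 beside ΔmiR-17,18, 1 of 45 members against a background of 2.51% of all miRNAs at that level. For loss of miR-19, miR-494-3p had -1.46 in ΔmiR-19 beside wild type and 1.34 in the full deletion beside ΔmiR-17,18,92, 1 of 45 members against 1.25%.

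The library of reads assigned to no genotype, which no comparison used, also held the members. Their sum there was 145500 nRPM, where 3 reads would be worth 1.06 nRPM. Of the 51 members, 44 lay inside the range of the 8 genotype libraries, 6 above it and 1 below.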

How the results depend on the processing

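No paired analysis was possible because each genotype has 1 library and the labels give no replicate numbers. The count of called members was 0 under all alternatives for 3 of the 4 terms. For the miR-17 term it was between 0 and 1 with each library left out in turn (1 without ΔmiR-92). Counts of members 2-fold from wild type stayed within 1.5 times in 39 of 42 alternatives. The exceptions were 5 in ΔmiR-17 with plain totals (9.72% of all miRNAs), 11 in the full deletion with totals outside miR-17~92 (17.9%), and 5 in ΔmiR-92 beside the median of the other 7 libraries (7.21%). Plain totals moved the median log2 of the other miRNAs to between -0.07 and 0.39, and totals outside the cluster moved it to -0.15 in the full deletion. With plain totals the split of higher to lower members was 3 to 2 in ΔmiR-17 (1 to 2 in the main scaling), where 6.58% of all miRNAs were higher and 3.13% lower. It was 1 to 2 in ΔmiR-19 (0 to 3 in the main scaling; 6.27% and 4.70% of all), 8 to 3 in ΔmiR-92 (4 to 4; 12.2% and 5.96%), 7 to 1 in ΔmiR-17,18,92 (4 to 2; 17.6% and 4.08%) and 6 to 2 in the full deletion (3 to 4; 13.8% and 4.39%). With TMM it was 2 to 2 in ΔmiR-17 (3.13% and 4.08% of all), and with totals outside the cluster 3 to 8 in the full deletion (4.39% and 13.5%). The lower side of ΔmiR-17,18 (11 members) was 9 to 12 under the other scalings (11.0% to 14.1% of all lower) and 7 beside the median of the other 7 libraries (8.15%). The lowest count of a member was 112 reads, and with 1 library per genotype the spread between embryos was not measured.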
